A study of Mus musculus with 6 samples.

Results

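The collagen chains of the mouse genome were described in single-cell RNA-sequencing data from fetal small intestine. Every gene symbol of the deposited matrix that consists of Col, a number, the letter a and a further number was taken as a chain, which gave 44 of 24568 symbols. The tissue came from C57/BL6 embryos of the Pdgfra-H2BGFP line, in which a nuclear green fluorescent protein reports the activity of Pdgfra, a growth factor receptor of mesenchymal cells, and all samples carry this reporter. The 6 samples form 4 groups. For embryos of E15.5 and E16.5 the labels give 2 lanes of all live cells (negative for DAPI and for the erythroid antigen Ter119) and 1 lane of enriched cells, and the same layout was used for those of E13.5, E14.5 and, as the oldest, E18.5. Enriched cells were a mixture sorted for high PDGFRA-GFP signal, for Epcam (epithelium), for CD31 (endothelium) or for CD45 (blood lineage). Each lane pooled intestinal segments of several embryos and ages, so that no lane is 1 age or 1 animal.

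The deposited matrix pools all samples. Its cell barcodes end in 6 suffixes that no label ties to a sample, so the suffixes were used as technical sets and not as study groups. They are named A1, A2, A3, B1, B2 and B3 here, the letter for the ending of the suffix and the digit for the number before it. No replicate exists in such a matrix and no test was made. All intervals are 95% intervals for counting error alone (exact Poisson or conditional binomial for levels and ratios, Clopper-Pearson for shares of cells). After the cell filter and the removal of called doublets, 12623 of 13127 cells were kept, 1177 to 2508 per set, with median depths of 7058 to 13586 UMIs (unique molecular identifiers, 1 per captured transcript) per cell in ending A and 3548 to 4175 in ending B. Set 3 was compared with sets 1 and 2 within an ending, because depth and gene lists differ between the endings. The difference between sets 1 and 2 was taken as the spread between sets. It cannot be read as the variation between embryos, sorts or preparations. Pairs of sets shared 0 to 3 cell barcodes.

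Most kept cells were mesenchyme by their markers, and Epcam, Pecam1 and Ptprc lay below Pdgfra in each set. Ending B also held a cluster of 229 cells with blood-lineage markers and one of 36 cells with neuron and glia markers. Pdgfra, the marker of the PDGFRA-high sort, stood at 172 CPM (UMIs per 1000000 UMIs of a set) in A1, 129 in A2 and 939 in A3, and at 105 in B1, 113 in B2 and 406 in B3. Epcam lay between 11.5 and 87.5 CPM over the 6 sets, Pecam1 (CD31) between 1.67 and 26.0 CPM and Ptprc (CD45) between 0.58 and 7.76 CPM. An Epcam UMI was found in 15.2%, 17.0% and 47.8% of cells in A1, A2 and A3 and in 5.07%, 6.02% and 9.95% in B1, B2 and B3. Other marker lists moved with set 3. The summed level of 6 smooth muscle markers was 1551, 1602 and 555 CPM in A1, A2 and A3 and 1128, 1126 and 230 CPM in B1, B2 and B3, that of 6 epithelial markers 50.7, 48.7 and 353 CPM in ending A and 40.6, 41.9 and 109 CPM in ending B, and that of 5 endothelial markers 22.9, 24.7 and 71.7 CPM in ending A and 31.4, 29.6 and 68.7 CPM in ending B. The sum of 5 enterocyte markers was 492, 472 and 2330 CPM in ending A, where 99.6% to 99.9% of cells of a set held such a UMI, and 31.9 to 55.8 CPM in ending B. The sum of 5 erythroid markers was 1863, 1798 and 3784 CPM in B1, B2 and B3 against 42.0 to 53.7 CPM in ending A. No gene of these lists was at 0 in all sets. Their part in the collagen values was not tested.

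Collagens are extracellular proteins of 3 chains wound into a triple helix, and each chain is made from a gene of its own. Fibrillar collagens (types I, II, III, V, XI, XXIV and XXVII) form the cable-like fibrils of connective tissue, and FACITs (fibril-associated collagens with interrupted triple helices) sit on the surface of such fibrils. Type IV collagen forms the sheet-like network of basement membranes, type VI forms beaded microfilaments near cells, multiplexins lie at basement membranes, and transmembrane collagens are anchored in the cell membrane. In the fetal gut wall, fibroblasts are the main source of fibrillar collagen, and PDGFRA-high cells gather beneath the epithelium at sites where villi form.

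Several chains are neighbours in the genome, and the DNA between or before them is shown for the type IV and type VI chains that carry the results below and for Col3a1. Positions are those of mm10 (GRCm38), taken from the GENCODE M21 annotation, and sequences come from RefSeq promoter entries of GRCm38.p6. All 6 type IV genes lie head to head in pairs: Col4a3 and Col4a4 on chromosome 1 with 71 bases between their annotated starts, Col4a5 and Col4a6 on chromosome X with 1308 bases, and Col4a1 and Col4a2 on chromosome 8, whose starts overlap by 22 bases. Col6a6, Col6a5 and Col6a4 follow each other on the minus strand of chromosome 9, with gaps of 27.9 and 28.8 kb. Each stretch is written 5′ to 3′ on the strand of its gene, and it ends at the base before the annotated start. The first is the whole gap between Col4a4 and Col4a3, chr1:82586850-82586920, on the minus strand (that of Col4a4). The others are 150 bases long: chrX:141474077-141474226 (minus) for Col4a6, chrX:141475235-141475384 (plus) for Col4a5, chr9:106096784-106096933 (minus) for Col6a4, chr9:105960644-105960793 (minus) for Col6a5, chr9:105828161-105828310 (minus) for Col6a6 and chr1:45311388-45311537 (plus) for Col3a1. Capitals mark matches on either strand to the CCAAT box (CCAAT), the GC box (GGGCGG) and the TATA box (TATAAA).
Col4a4 to Col4a3: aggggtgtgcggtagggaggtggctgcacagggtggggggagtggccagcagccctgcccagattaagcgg
Col4a6: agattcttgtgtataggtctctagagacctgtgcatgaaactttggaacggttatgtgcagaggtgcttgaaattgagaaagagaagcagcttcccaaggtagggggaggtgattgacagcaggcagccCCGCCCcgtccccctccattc
Col4a5: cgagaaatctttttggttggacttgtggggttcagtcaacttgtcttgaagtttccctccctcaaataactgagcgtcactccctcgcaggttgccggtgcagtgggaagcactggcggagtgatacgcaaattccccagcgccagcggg
Col6a4: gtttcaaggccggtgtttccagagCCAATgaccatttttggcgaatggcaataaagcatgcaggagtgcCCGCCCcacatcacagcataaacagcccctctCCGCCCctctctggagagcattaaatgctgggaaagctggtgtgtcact
Col6a5: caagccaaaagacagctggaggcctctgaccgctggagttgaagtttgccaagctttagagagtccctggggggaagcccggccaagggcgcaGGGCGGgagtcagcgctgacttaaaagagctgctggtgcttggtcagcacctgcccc
Col6a6: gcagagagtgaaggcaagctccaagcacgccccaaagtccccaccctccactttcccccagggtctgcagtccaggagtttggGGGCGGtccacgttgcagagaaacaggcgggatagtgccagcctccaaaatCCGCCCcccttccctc
Col3a1: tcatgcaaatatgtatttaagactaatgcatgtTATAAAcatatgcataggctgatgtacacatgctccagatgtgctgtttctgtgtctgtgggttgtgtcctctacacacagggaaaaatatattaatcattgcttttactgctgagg
The gap of Col4a4 and Col4a3 and the stretch before Col4a5 held none of the 3 motifs. The stretch before Col6a4 held 1 CCAAT box and 2 GC boxes, that of Col6a5 held 1 GC box, and that of Col6a6 held 2 GC boxes. Col4a6 had 1 GC box and Col3a1 had 1 TATA box. Among 32851 promoter entries, windows of the same 150 bases held a CCAAT box in 24.5%, a GC box in 28.6% and a TATA box in 7.57%, and windows of 71 bases in 13.3%, 20.7% and 4.41%. The 38 windows of the 35 chains with an entry held a GC box in 19, a CCAAT box in 8 and a TATA box in 4 cases. None of the 3 motifs overlaps another in letters. The stretch before Col6a4 overlaps an exon of the annotated gene Gm36993, and the others overlap no annotated exon. These are matches of letters and no measured binding.

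The collagen share of all transcripts varied less between sets than its make-up by class. All 44 chains together took 0.949%, 0.884% and 1.26% of UMIs in A1, A2 and A3, and 0.929%, 0.981% and 1.08% in B1, B2 and B3. Fibrillar chains made up 65.8% and 65.1% of collagen UMIs in A1 and A2 but 36.5% in A3, and 60.2% and 62.0% in B1 and B2 but 32.5% in B3. Type VI chains made up 18.2%, 17.8% and 37.3% in ending A and 23.0%, 22.1% and 43.6% in ending B. Type IV chains made up 5.97%, 6.12% and 16.1% in ending A and 7.76%, 7.47% and 15.4% in ending B. In both endings, type VI thus had the largest share in set 3 and fibrillar chains had the largest share in sets 1 and 2. As levels, fibrillar sums were 6249, 5754 and 4594 CPM in A1, A2 and A3, which is a log2 ratio of set 3 to sets 1 and 2 of -0.39 (-0.40 to -0.37). They were 5594, 6085 and 3499 CPM in ending B, a log2 ratio of -0.74 (-0.76 to -0.72). Type IV sums were 567, 541 and 2031 CPM in ending A and 721, 733 and 1657 CPM in ending B, with log2 ratios of 1.87 (1.85 to 1.90) and 1.19 (1.15 to 1.22). Type VI sums were 1728, 1576 and 4703 CPM in ending A and 2138, 2168 and 4694 CPM in ending B, with log2 ratios of 1.51 (1.49 to 1.52) and 1.12 (1.10 to 1.14). FACIT sums were 820, 836 and 766 CPM in ending A and 671, 664 and 379 CPM in ending B, with log2 ratios of -0.11 (-0.15 to -0.07) and -0.82 (-0.87 to -0.76). Transmembrane chains were higher in set 3 by 2.14 and 1.87 on the log2 scale and multiplexins by 2.46 and 1.57. Between sets 1 and 2 the sums of these 6 classes differed by 0.25 or less on the log2 scale in both endings.

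**Figure D1:**
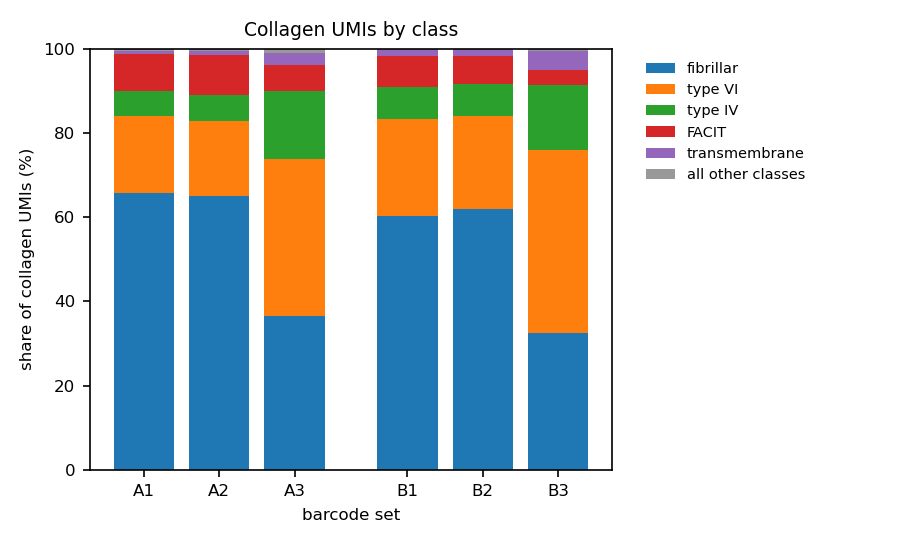
Share of all collagen UMIs (percent, stacked to 100) by collagen class in each of the 6 barcode sets, kept cells. Fibrillar chains hold 60.2% to 65.8% in sets 1 and 2 of both endings and 32.5% to 36.5% in set 3, where type VI and type IV shares are larger.

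Counted chain by chain, more chains lay above than below sets 1 and 2. A chain counted as higher or lower when it reached 10 CPM on 1 side and differed 2-fold from each of sets 1 and 2. Some chains reached 10 CPM in set 3 alone. Among them were Col4a3, Col4a4, Col4a6, Col15a1 and Col25a1 in ending A and Col18a1 in ending B. Such chains could not be counted as lower, so their calls lend no support to a direction. The same rule was used for all genes. In ending A, 16 of 30 chains at 10 CPM were higher in A3, where 10.4% of 9594 genes were higher, and 3 were lower, where 5.29% of genes were lower. In ending B, 10 of 25 chains were higher in B3, against 8.1% of 8658 genes, and 5 were lower, against 5.36% of genes. Of 25 chains at 10 CPM in both endings, 10 were higher in both and 3 were lower in both, and 23 had a ratio of the same sign. Of the 8341 genes at 10 CPM in both endings, 5.99% were higher in both, 3.11% were lower in both and 75.95% had a ratio of the same sign. The median log2 ratio of the chains was 1.42 in ending A and 0.88 in ending B, beside -0.03 and 0.14 over all genes. The median absolute difference between sets 1 and 2 was 0.11 and 0.07 for the chains, which is less than the median ratio in both endings. The largest such difference for a chain was 1.12 in ending A and 0.51 in ending B.

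**Figure D2:**
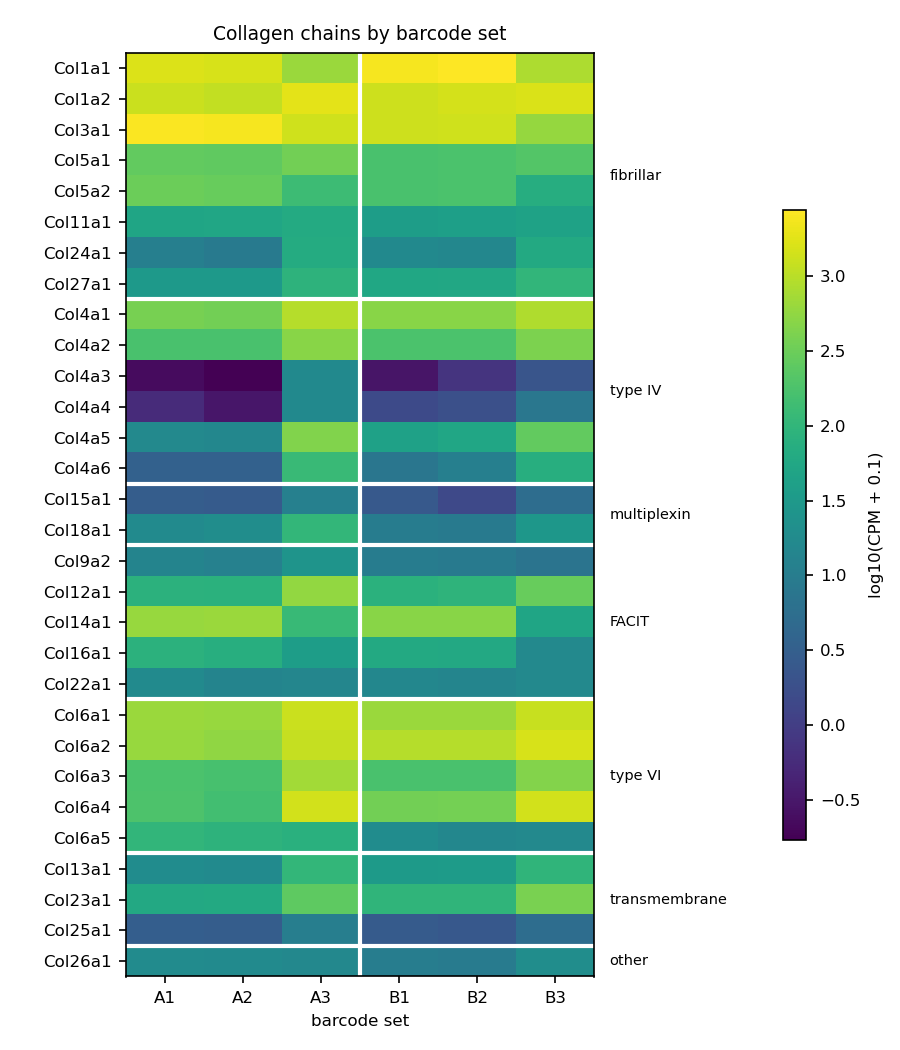
Level of the 30 chains with at least 10 CPM in 1 set, as log10(CPM + 0.1), by barcode set and collagen class. Sets 1 and 2 of an ending lie close together for most chains, and set 3 is lower for Col1a1, Col5a2 and Col14a1 and higher for the type IV chains, Col6a3, Col6a4 and Col12a1.

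Among fibrillar chains the 2 partners of type I collagen, a heterotrimer of Col1a1 and Col1a2 chains, went separate ways. Col1a1 stood at 1653, 1541 and 652 CPM in A1, A2 and A3, and at 2465, 2780 and 833 CPM in B1, B2 and B3. It was 2.45-fold lower in A3 and 3.16-fold lower in B3, log2 ratios of -1.29 (-1.33 to -1.26) and -1.66 (-1.70 to -1.62). Col1a2 stood at 1280, 1160 and 1845 CPM in ending A and at 1346, 1466 and 1575 CPM in ending B, so that it was highest in set 3 in both. Its log2 ratio was 0.59 (0.57 to 0.62) and 0.16 (0.13 to 0.19), and the latter is near the 0.12 between B1 and B2. Col3a1, the chain of homotrimeric type III collagen, stood at 2626, 2406 and 1394 CPM in ending A and 1326, 1369 and 601 CPM in ending B. Both values in set 3 were the lowest of their ending, with log2 ratios of -0.85 (-0.88 to -0.83) and -1.17 (-1.21 to -1.12).

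Type V and XI collagens are minor fibrillar partners that set fibril diameter, and their chains did not move together. Col5a2, which lies tail to tail with Col3a1 on chromosome 1, stood at 316, 293 and 133 CPM in ending A and 173, 176 and 72.8 CPM in ending B, log2 ratios of -1.20 (-1.28 to -1.11) and -1.26 (-1.39 to -1.14). Its partner Col5a1 stood at 275, 256 and 346 CPM in ending A and 175, 179 and 208 CPM in ending B, log2 ratios of 0.38 and 0.23. Col11a1 stood at 50.9, 52.2 and 64.0 CPM in ending A and 36.8, 40.9 and 45.1 CPM in ending B, which is 0.31 and 0.21 on the log2 scale. Set 3 was thus low for Col5a2 and slightly high for both Col5a1 and Col11a1. Col24a1 and Col27a1, fibrillar chains with shorter or interrupted helices, were higher in set 3. Col24a1 stood at 11.0, 8.76 and 66.8 CPM in ending A and 16.8, 14.9 and 60.5 CPM in ending B, log2 ratios of 2.75 (2.59 to 2.92) and 1.94 (1.73 to 2.14). Col27a1 stood at 32.7, 32.8 and 91.4 CPM in ending A and 54.1, 57.0 and 103 CPM in ending B, log2 ratios of 1.48 (1.36 to 1.60) and 0.88 (0.75 to 1.01).

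All 6 type IV chains had their highest level in set 3 of each ending, and the minor chains had the larger ratios. By the rule of 10 CPM and 2-fold, all 6 were counted as higher in ending A, and Col4a2, Col4a5 and Col4a6 were in ending B. Col4a1 and Col4a2 together make the type IV molecule found in nearly all basement membranes. Col4a1 stood at 374, 354 and 935 CPM in ending A and at 492, 488 and 886 CPM in ending B, log2 ratios of 1.36 (1.32 to 1.39) and 0.86 (0.81 to 0.90), the latter short of 2-fold. Col4a2 stood at 173, 168 and 493 CPM in ending A and at 176, 179 and 412 CPM in ending B, log2 ratios of 1.53 (1.48 to 1.58) and 1.22 (1.15 to 1.28). Col4a5 and Col4a6, which form another network of 2 α5 chains per α6 chain, gave large contrasts with well-counted levels in set 3. Col4a5 stood at 16.1, 15.0 and 448 CPM in ending A and at 44.4, 53.0 and 274 CPM in ending B, which is 28.7-fold and 5.60-fold higher in set 3. Col4a6 stood at 3.36, 3.30 and 121 CPM in ending A and at 7.67, 10.9 and 75.5 CPM in ending B, 36.2-fold and 8.04-fold higher. Their log2 ratios were 4.84 (4.74 to 4.95) and 2.49 (2.38 to 2.59) for Col4a5 and 5.18 (4.96 to 5.40) and 3.01 (2.78 to 3.25) for Col4a6.

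Col4a3 and Col4a4, which join Col4a5 in the network known from the kidney glomerulus, were rare outside A3. Col4a3 had 4, 2 and 157 UMIs in A1, A2 and A3 and 2, 7 and 17 UMIs in B1, B2 and B3, or 0.13, 0.07, 16.9, 0.20, 0.63 and 2.08 CPM. Col4a4 had 14, 6 and 156 UMIs in ending A and 14, 19 and 65 UMIs in ending B, or 0.45, 0.21, 16.8, 1.39, 1.70 and 7.96 CPM. Set 3 was the highest of its ending for both chains. The log2 ratios were 7.40 (6.24 to 8.86) and 2.30 (1.05 to 3.64) for Col4a3 and 5.65 (4.97 to 6.40) and 2.36 (1.73 to 3.01) for Col4a4, the wide intervals following from the few UMIs in sets 1 and 2. Neither chain reached 10 CPM in ending B, so that neither was counted there. The last 1000 bases of Col4a3 overlap exons of the antisense gene C430014B12Rik, and whether the counting used strand is not given in the sources used here, so the Col4a3 level is uncertain to that extent.

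**Figure D3:**
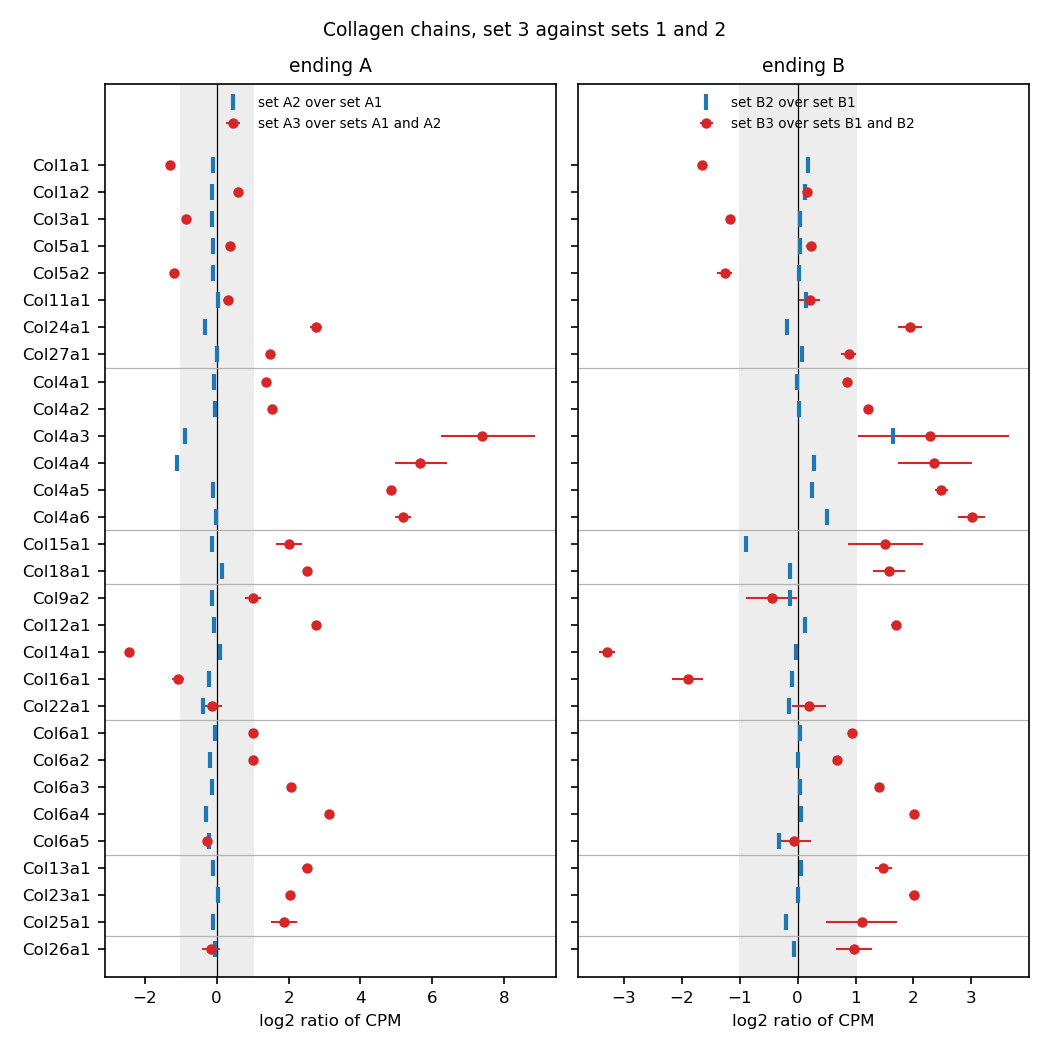
Log2 ratio of CPM in set 3 to sets 1 and 2 (red points, bars are 95% counting intervals) for the 30 named chains in endings A (left) and B (right), with the ratio of set 2 to set 1 as blue ticks. The grey band spans 2-fold in either direction, and the x scales differ between panels. Col4a3 to Col4a6 reach 4.84 to 7.40 in ending A, and Col14a1 is lowest in both endings at -2.45 and -3.29.

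Type VI collagen is assembled from Col6a1, Col6a2 and a further chain, which can be Col6a3 or one of the later relatives Col6a4, Col6a5 and Col6a6. Col6a1 stood at 639, 622 and 1264 CPM in ending A and at 640, 655 and 1249 CPM in ending B, log2 ratios of 1.00 (0.97 to 1.03) and 0.95 (0.91 to 0.98). Col6a2 stood at 621, 551 and 1189 CPM in ending A and at 958, 958 and 1535 CPM in ending B, log2 ratios of 1.02 (0.99 to 1.05) and 0.68 (0.65 to 0.71). Both shared chains were therefore about 1.60-fold to 2.03-fold higher in set 3 and were not counted as higher, since each missed 2-fold against at least 1 of sets 1 and 2. Col6a3 stood at 177, 163 and 714 CPM in ending A and at 169, 173 and 453 CPM in ending B, 4.19-fold and 2.65-fold higher in set 3. Col6a4, of which the human gene is broken, stood at 184, 148 and 1454 CPM in ending A and at 348, 362 and 1438 CPM in ending B. It was 8.74-fold and 4.05-fold higher in set 3, log2 ratios of 3.13 (3.09 to 3.16) and 2.02 (1.98 to 2.06). Its tandem neighbours differed from it. Col6a5 stood at 102, 88.5 and 79.4 CPM in ending A and at 18.9, 15.2 and 16.3 CPM in ending B, log2 ratios of -0.27 (-0.38 to -0.16) and -0.05 (-0.35 to 0.24). Col6a6 stayed between 2.48 and 5.08 CPM in all 6 sets. Col6a4 was thus the one chain of the 3 neighbours that was high in set 3.

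The FACITs held contrasts in opposite directions. Col14a1, which binds fibrils in dense connective tissue, stood at 615, 652 and 116 CPM in ending A and at 498, 490 and 50.5 CPM in ending B. It was 5.46-fold and 9.78-fold lower in set 3, log2 ratios of -2.45 (-2.54 to -2.36) and -3.29 (-3.43 to -3.15). Col12a1, its close relative in domain structure, stood at 86.7, 82.6 and 571 CPM in ending A and at 84.2, 92.0 and 287 CPM in ending B. It was 6.74-fold and 3.25-fold higher in set 3, log2 ratios of 2.75 (2.70 to 2.81) and 1.70 (1.61 to 1.79). The near-level FACIT sum of ending A therefore joins a lower Col14a1 with a higher Col12a1. Col16a1 stood at 85.1, 73.4 and 37.7 CPM in ending A and at 62.3, 58.3 and 16.2 CPM in ending B, with set 3 lowest in both and log2 ratios of -1.08 (-1.24 to -0.92) and -1.90 (-2.17 to -1.64). Col22a1, known from tissue junctions, lay between 13.49 and 17.7 CPM in all sets, and its intervals included 0 in both endings. Col9a2, a chain of the cartilage FACIT type IX, stood at 13.2, 12.1 and 25.5 CPM in ending A and at 9.96, 9.14 and 6.98 CPM in ending B, high in A3 and low in B3.

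Of the transmembrane chains and multiplexins, Col23a1, Col13a1 and Col18a1 were counted as higher in set 3 in both endings and Col25a1 and Col15a1 in ending A alone, both being under 10 CPM in ending B. The fourth transmembrane chain, Col17a1 of epithelial hemidesmosomes, was at 0.55, 0.49 and 0.22 CPM in ending A and at 0.10, 0.36 and 0.12 CPM in ending B. Col23a1 stood at 59.8, 61.6 and 249 CPM in ending A and at 97.2, 97.5 and 392 CPM in ending B, log2 ratios of 2.04 (1.96 to 2.11) and 2.01 (1.93 to 2.09), nearly the same in both endings. Col13a1 stood at 18.9, 17.7 and 104 CPM in ending A and at 33.9, 35.2 and 96.3 CPM in ending B, log2 ratios of 2.51 (2.38 to 2.64) and 1.48 (1.33 to 1.63). Col25a1, a chain known from motor nerve targets, stood at 3.04, 2.82 and 10.8 CPM in ending A and at 2.69, 2.33 and 5.39 CPM in ending B. Set 3 was the highest in its ending for these 3. Col18a1, the precursor of endostatin, stood at 17.7, 19.4 and 106 CPM in ending A and at 9.96, 9.14 and 28.4 CPM in ending B, log2 ratios of 2.52 (2.39 to 2.64) and 1.58 (1.30 to 1.86). Col15a1 stood at 2.91, 2.68 and 11.3 CPM in ending A and at 2.49, 1.34 and 5.39 CPM in ending B, again highest in set 3. Col26a1 stood at 18.1, 17.3 and 15.8 CPM in ending A and at 10.2, 9.68 and 19.5 CPM in ending B, with log2 ratios of opposite sign, -0.16 (-0.42 to 0.09) and 0.98 (0.67 to 1.28).

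The remaining 14 chains stayed under 10 CPM in every set. They were Col2a1, Col5a3, Col6a6, Col7a1, Col8a1, Col8a2, Col9a1, Col9a3, Col10a1, Col11a2, Col17a1, Col19a1, Col20a1 and Col28a1. Their levels ran from 0 to 5.38 CPM, and the median of their UMI totals over all sets, leaving out Col10a1, was 76. Col10a1, the chain of hypertrophic cartilage, had no UMI in any kept cell, which allows up to 0.10 CPM in A1 and up to 0.37 CPM in B3. All 43 other chains had UMIs in both endings, so that no chain had counts in a single ending. Col28a1, known from peripheral nerve, stood at 3.81, 4.62 and 0.54 CPM in ending A and at 5.38, 4.48 and 0.12 CPM in ending B, lowest in set 3 in both. Summed markers of glia moved the same way, with 23.5, 28.2 and 7.86 CPM in ending A and 22.7, 16.8 and 5.64 CPM in ending B, and their part was not tested. Col2a1, Col9a1 and Col10a1, markers of cartilage, were at 1.11 CPM or less in all sets.

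Chains that are built into the same molecule were then set against each other. A UMI stands for 1 transcript tagged near its 3′ end and is not scaled by length, so the ratios are of captured transcripts. UMIs of Col1a2 per UMI of Col1a1 were 0.774, 0.753 and 2.83 in A1, A2 and A3, and 0.546, 0.527 and 1.89 in B1, B2 and B3. Counting intervals in set 3 ran from 2.75 to 2.91 and from 1.83 to 1.95, well apart from sets 1 and 2. UMIs of Col5a2 per UMI of Col5a1 were 1.15, 1.15 and 0.385 in ending A and 0.990, 0.987 and 0.350 in ending B. The ratio of Col6a3 to Col6a1 was 0.278, 0.262 and 0.564 in ending A and 0.264, 0.264 and 0.363 in ending B. The ratio of Col4a2 to Col4a1 was 0.461, 0.475 and 0.527 in ending A and 0.357, 0.366 and 0.465 in ending B, and that of Col6a2 to Col6a1 was 0.972, 0.886 and 0.940 in ending A and 1.5, 1.46 and 1.23 in ending B. The ratio thus shifted by 1.89 and 1.82 on the log2 scale for type I, by -1.58 and -1.5 for type V and by 0.36 or less in absolute value for Col4a2 to Col4a1 and Col6a2 to Col6a1. The head-to-head pair of Col4a6 and Col4a5 gave 0.208, 0.220 and 0.269 in ending A and 0.173, 0.206 and 0.276 in ending B. In A3 Col4a4 and Col4a3 were counted nearly equally, 0.994 (0.791 to 1.25), and in B3 Col4a4 had 3.82 UMIs (2.21 to 6.96) per UMI of Col4a3.

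**Figure D4:**
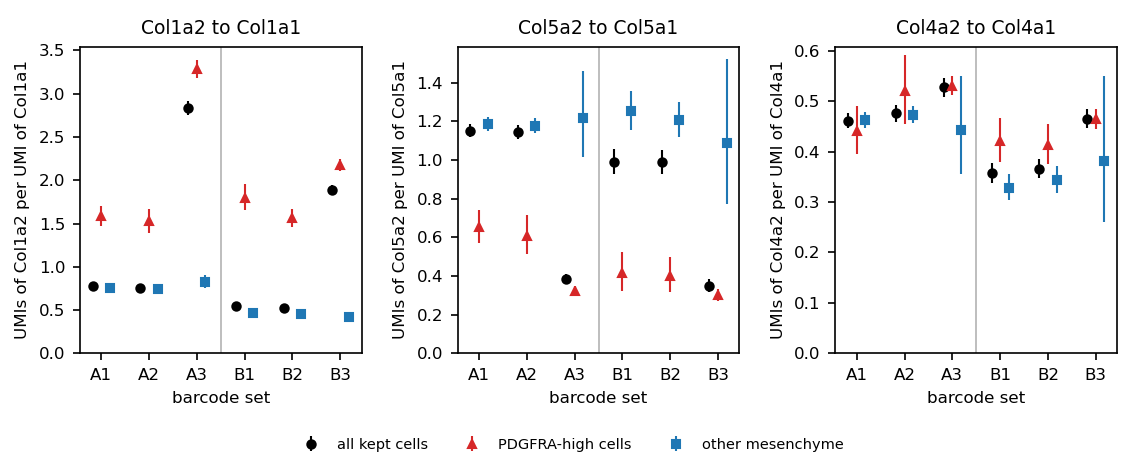
UMI ratio of Col1a2 to Col1a1, Col5a2 to Col5a1 and Col4a2 to Col4a1 (y axes, linear) by barcode set for all kept cells (black), PDGFRA-high cells (red) and other mesenchyme (blue), with 95% counting intervals. In other mesenchyme the first ratio stays between 0.422 and 0.828 in all 6 sets, and in PDGFRA-high cells it lies between 1.53 and 3.29.

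The sets were next compared by cell class, since their make-up differed. Cells were clustered in each ending with all collagen chains left out of the clustering genes. Clusters with at least 3 of 9 markers of PDGFRA-high mesenchyme at 2-fold or more made up the PDGFRA-high class with 4214 cells (33.4% of those kept), and the remaining clusters with at least 3 of 8 mesenchyme markers at 100 CPM made up other mesenchyme with 7040 cells (55.8%). Outside the PDGFRA-high class, a cluster stayed unnamed where it had 3 or more markers of another lineage at 4-fold. Clusters that met the PDGFRA-high rule were not screened in this way, so that they could hold such markers. In either class, a cluster stayed unnamed where markers of another list outnumbered those of its own among its 10 leading genes. These rules left out 1369 cells (10.8%), all in ending B. Of them, 730 were a cluster that met the rule for other mesenchyme but had Dll1, a PDGFRA-high marker, among its leading genes. Another cluster, of 374 cells, met the same rule but had Hbb-y, an erythroid marker, among its leading genes. The cluster of 730 cells shared the leading genes Apela and Tbx2 with an ending A cluster of 252 cells placed in the PDGFRA-high class. The classes of the endings therefore need not match. PDGFRA-high cells were 6.46% of A1, 4.46% of A2 and 94.99% of A3, and 18.1% of B1, 19.1% of B2 and 90.1% of B3. Set 3 thus held mostly PDGFRA-high cells in both endings, and the labels do not say which sample a set is. No named class should lack collagen, so no class gave a background from free RNA. One unnamed cluster of ending B, with 229 cells and led by Ptprcap, Rgs1 and other blood-lineage genes, had Col1a1 at 2438 CPM, Col14a1 at 460 CPM and Col4a5 at 13.4 CPM, which are levels within the range of the mesenchymal clusters. Whether these are free RNA or mixed barcodes was not tested.

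Within sets 1 and 2, where both classes were captured together, PDGFRA-high cells had more type IV and type VI and less fibrillar transcript than other mesenchyme. Fibrillar sums were 3344 against 6180 CPM in ending A and 2766 against 7745 CPM in ending B, log2 ratios of -0.89 (-0.91 to -0.86) and -1.49 (-1.52 to -1.45). Type IV sums were 884 against 534 CPM and 1501 against 550 CPM, log2 ratios of 0.73 (0.68 to 0.78) and 1.45 (1.39 to 1.5). Type VI sums were 2791 against 1583 CPM and 3951 against 1520 CPM, log2 ratios of 0.82 (0.79 to 0.85) and 1.38 (1.35 to 1.41). FACIT sums were 525 against 847 CPM and 345 against 897 CPM, log2 ratios of -0.69 (-0.76 to -0.62) and -1.38 (-1.47 to -1.29). By chain, 6 of 26 were 2-fold higher in PDGFRA-high cells of ending A, where 3.95% of 9120 genes were, and 5 were 2-fold lower, where 2.28% of genes were. In ending B, 13 of 26 were higher, against 9.89% of 8505 genes, and 5 were lower, against 9.56% of genes. Here too, chains such as Col4a6 reached 10 CPM in PDGFRA-high cells alone and could not be counted as lower. In ending A, 110 of the 159 PDGFRA-high cells of A1 and 54 of the 93 of A2 came from 1 cluster that met the rule with 3 markers. It had a Pdgfra level of 284 CPM and was led by Cd74 and Apela, with Nusap1 and Ube2c also among its leading genes. Without that cluster the log2 ratios in ending A were 2.15 for type IV, 1.88 for type VI, -0.42 for fibrillar and 0.03 for FACIT sums. In A3, by contrast, 693 of 1118 PDGFRA-high cells lay in another cluster, led by Slco2a1 and Npnt, with Pdgfra at 1266 CPM and with 6 epithelial and 4 enterocyte markers at 4-fold or more.

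The type IV chains outside the Col4a1 and Col4a2 pair, Col6a4 and 2 transmembrane chains had the higher levels in PDGFRA-high cells within these sets. Col4a5 stood at 117 against 9.21 CPM in ending A and 233 against 5.69 CPM in ending B, log2 ratios of 3.66 (3.47 to 3.85) and 5.36 (5.00 to 5.73). Col4a6 stood at 31.2 against 1.57 CPM and 46.1 against 0.56 CPM, and Col4a3 at 1.41 against 0.02 CPM and 2.54 CPM against no UMI. Col6a4 stood at 636 against 137 CPM and 1106 against 91.9 CPM, log2 ratios of 2.22 (2.15 to 2.29) and 3.59 (3.49 to 3.69). All 4 chains had higher levels in PDGFRA-high cells, though few UMIs lie behind Col4a3. Col23a1 stood at 150 against 55.002 CPM and 336 against 32.0 CPM, and Col13a1 at 56.0 against 15.9 CPM and 110 against 13.9 CPM. In the other direction, Col14a1 stood at 287 against 654 CPM in ending A and 35.6 against 725 CPM in ending B, and Col1a1 at 581 against 1664 CPM and 716 against 3669 CPM. These values depend on how the class is drawn: between cells with 2 or more Pdgfra UMIs and cells with none, Col14a1 stood at 552 against 650 CPM in ending A and 143 against 538 CPM in ending B, Col1a1 at 1327 against 1658 CPM and 1209 against 2821 CPM, Col6a4 at 409 against 150 CPM and 1016 against 281 CPM, and Col4a5 at 92.7 against 10.7 CPM and 210 against 33.3 CPM. Col14a1 in ending B gave the lowest log2 ratio of the named chains, -4.35 (-4.63 to -4.08). Col6a5 differed between the endings, with 45.0 against 98.9 CPM in ending A and 25.7 against 10.7 CPM in ending B. Most PDGFRA-high cells of A1 and A2 came from the cluster with 3 markers, which limits all chain values of the class in ending A. Col14a1 stood at 3.92 CPM in the ending A cluster led by Slco2a1 and Npnt, which held mostly cells of A3.

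**Figure D5:**
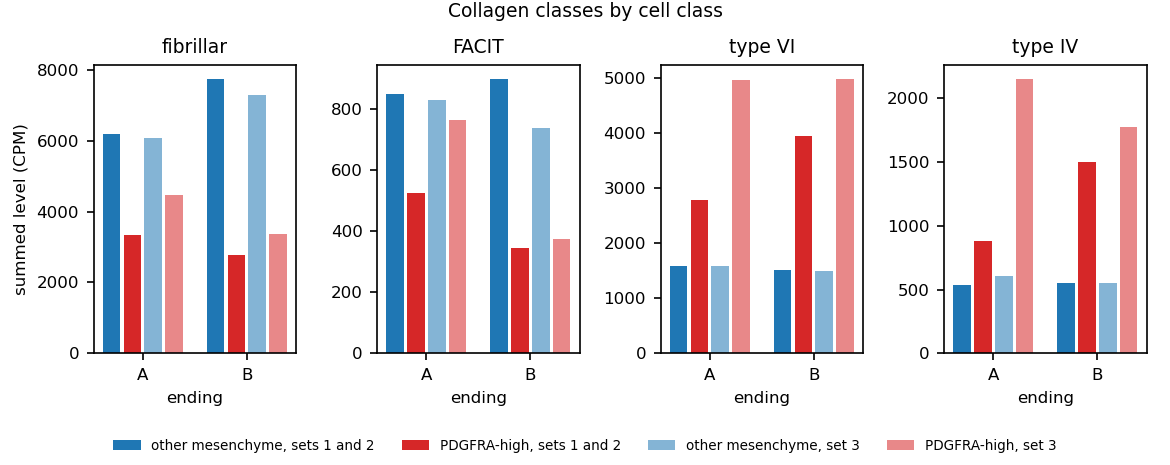
Summed level (CPM, linear axes from 0) of fibrillar, FACIT, type VI and type IV chains in PDGFRA-high cells (red) and other mesenchyme (blue) of sets 1 and 2 (dark) and set 3 (light), by ending. Type VI and type IV sums are higher in PDGFRA-high cells in all 4 pairs, and fibrillar sums are lower in all 4 pairs.

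With the class held fixed, most of the contrast between sets became smaller and some of it turned. In PDGFRA-high cells, fibrillar sums were 0.42 higher on the log2 scale in A3 than in A1 and A2, and 0.28 higher in B3 than in B1 and B2, opposite in sign to the ratios over all kept cells. FACIT sums were 0.54 and 0.11 higher. Type IV sums were 1.28 higher in ending A and 0.24 higher in ending B, and type VI sums were 0.83 and 0.33 higher. Col1a1 in these cells stood at 581 CPM in A1 and A2 and 576 CPM in A3, and at 716 CPM in B1 and B2 and 735 CPM in B3. Its 2.45-fold and 3.16-fold lower levels over all cells of set 3 were thus not seen within the class. Col1a2 was still higher in set 3 within the class, by 1.06 (1.01 to 1.12) in ending A and 0.43 (0.38 to 0.49) in ending B. In other mesenchyme, type IV sums were 534 CPM in A1 and A2 and 609 CPM in A3, and 550 CPM in B1 and B2 and 549 CPM in B3, though set 3 held only 59 and 51 such cells. The UMI ratio of Col1a2 to Col1a1 was 1.58, 1.53 and 3.29 in PDGFRA-high cells of ending A and 1.80, 1.56 and 2.18 in those of ending B, against 0.754, 0.738 and 0.828 and 0.471, 0.452 and 0.422 in other mesenchyme. That of Col5a2 to Col5a1 was 0.652, 0.607 and 0.323 and 0.413, 0.398 and 0.301 in PDGFRA-high cells, against 1.09 to 1.25 in other mesenchyme of all sets. Both ratios therefore separated the classes in each of the 6 sets. In the PDGFRA-high cells of ending A the cluster with 3 markers weighs on sets 1 and 2 and the cluster led by Slco2a1 weighs on set 3, so that values within the class compare different clusters. In ending B the cluster led by Npnt and Slco2a1 held 127 of 401 PDGFRA-high cells in B1, 176 of 479 in B2 and 1054 of 1964 in B3, so that the make-up of the class differed there too.

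Shares of cells with a UMI, after thinning each cell to 2000 UMIs, followed the same lines. Thinning left out 1 to 13 cells per set. Col6a4 UMIs were found in 24.7%, 19.5% and 88.4% of cells in A1, A2 and A3, and in 39.5%, 38.2% and 89.0% in B1, B2 and B3. Without thinning these shares were 57.1%, 53.1% and 97.3% in ending A and 52.5%, 51.7% and 95.5% in ending B. By class, Col6a4 UMIs were in 60.4%, 67.4% and 91.7% of PDGFRA-high cells of ending A and in 22.3%, 17.3% and 27.1% of other mesenchyme. The share was thus higher in PDGFRA-high cells in each of the 3 sets, while the last value rests on 16 of 59 cells and its interval (16.4 to 40.3) includes the other shares of its class. Col4a5 UMIs were found in 2.93%, 2.93% and 54.4% of cells in ending A and in 8.37%, 9.93% and 42.5% in ending B, and unthinned in 11.5%, 13.1% and 82.8% and in 14.0%, 15.4% and 58.9%. In B1, 32.7% (28.1 to 37.5) of PDGFRA-high cells and 1.27% (0.73 to 2.06) of other mesenchyme held a Col4a5 UMI, with median depths of 3504 and 4467 UMIs before thinning. Col14a1 ran the other way, with 61.1%, 62.5% and 10.2% of cells in ending A and 48.8%, 49.0% and 5.62% in ending B, and unthinned 92.8%, 93.4% and 22.1% and 65.0%, 63.8% and 10.0%. In B1 it was in 6.58% of PDGFRA-high cells and in 72.0% of other mesenchyme.

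Clusters within the classes differed further by chain. These are descriptions of clusters drawn from the same cells. In ending A, 14 clusters held 50 or more cells. A cluster of 337 cells of other mesenchyme, led by Dpt, Aspn and Mgp (genes of the dense matrix), was highest for Col1a1 at 8228 CPM, Col3a1 at 10264 CPM, Col1a2 at 6745 CPM, Col14a1 at 2027 CPM, Col5a1 at 921 CPM, Col5a2 at 872 CPM and Col16a1 at 311 CPM. It was lowest for Col6a4 at 35.2 CPM, Col23a1 at 19.3 CPM and Col11a1 at 33.2 CPM. In ending B, 1 of 11 such clusters, with 1307 cells and led by Ogn, Cxcl13 and Lrat with Aspn among its leading genes, was highest for the same 7 chains, with Col1a1 at 5081 CPM and Col14a1 at 932 CPM. Among PDGFRA-high cells, the clusters led by Slco2a1 and Npnt in both endings were highest for Col4a3, Col4a4, Col4a5, Col4a6, Col6a3 and Col27a1. Col4a5 reached 727 CPM in the one of ending A and 336 CPM in the one of ending B, and Col4a4 reached 33.0 and 17.6 CPM. Col4a3 reached 32.4 and 5.44 CPM there and was at 0.985 CPM or less in every other cluster of 50 or more cells. Col12a1, Col13a1 and Col23a1 were highest in other PDGFRA-high clusters, led by Opcml, Kcnk13 and Calb1 in ending A and by Kcnk13 and Gadd45a in ending B. Col12a1 stood there at 1608 and 406 CPM and Col23a1 at 584 and 506 CPM. Clusters were not matched between the endings. Calb1, Sfrp2 and Cacna2d3, leading genes of that ending A cluster, were among those of a different PDGFRA-high cluster in ending B. Whether the 2 clusters hold the same cells was thus not tested. Col6a5 peaked in ending A at 1037 CPM in a cluster of other mesenchyme with 408 cells, where Col6a2 was highest too at 2057 CPM. Col18a1 peaked at 1225 CPM in a cluster of 56 cells of ending A led by Igfbp3 and P2rx1, 6.34-fold above the next cluster.

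Genes that make, fold, cut, cross-link or bind collagen included members with high and with low ratios. Of a list of 44 such genes in the matrix, 6 of 37 at 10 CPM were higher and 3 were lower in A3 by the same rule as the chains, beside 10.4% and 5.29% of all genes, and 5 of 33 were higher and 5 lower in B3, beside 8.1% and 5.36% of all genes. Their median log2 ratio was 0.10 in ending A and -0.05 in ending B, over members that go both ways. The 5 to 6 chaperones at 10 CPM, among them Serpinh1 (HSP47, the collagen-specific chaperone), held no member past 2-fold in either ending. Receptors were the group with most members higher. Itga2, the α subunit of a collagen-binding integrin, stood at 13.4, 8.76 and 155 CPM in ending A and at 25.5, 26.5 and 120 CPM in ending B, log2 ratios of 3.79 (3.66 to 3.93) and 2.21 (2.05 to 2.36). Itga1 stood at 50.01, 46.5 and 189 CPM and at 54.1, 53.9 and 140 CPM, and Itga11 at 7.73, 6.88 and 37.6 CPM and at 15.1, 16.6 and 37.6 CPM, all 3 highest in set 3. Their β partner Itgb1 was not past 2-fold in either ending.

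Of the genes that bind or cross-link fibrils, Dcn, Lum, Lox, Loxl1 and Sparc were lowest in set 3 of both endings. Loxl2 was not past 2-fold in either ending. Sparc stood at 1661, 1678 and 1219 CPM in ending A and at 2681, 2613 and 1099 CPM in ending B. Dcn, the fibril-binding proteoglycan decorin, stood at 746, 722 and 142 CPM in ending A and at 727, 720 and 116 CPM in ending B, log2 ratios of -2.37 (-2.45 to -2.29) and -2.65 (-2.74 to -2.55). Lum (lumican) stood at 370, 347 and 148 CPM and at 453, 434 and 228 CPM. Dcn and Lum also belong to the markers of other mesenchyme. Lox, the lysyl oxidase that cross-links fibrils, stood at 61.3, 58.3 and 23.6 CPM in ending A and at 55.6, 56.5 and 5.76 CPM in ending B, log2 ratios of -1.34 (-1.55 to -1.15) and -3.28 (-3.74 to -2.86). Loxl1 stood at 23.1, 21.9 and 20.4 CPM in ending A and at 26.5, 24.5 and 5.39 CPM in ending B, low in B3 but not in A3. The interval of Loxl1 in ending A included 0. Loxl2 stood at 201, 209 and 236 CPM in ending A, highest in A3, and at 124, 126 and 121 CPM in ending B. Of the cross-linking genes at 10 CPM, 1 of 4 was lower in A3 and 2 of 3 were lower in B3. Over all genes 5.29% and 5.36% were lower. The median log2 ratio of these cross-linking genes was 0.03 in ending A and -2.24 in ending B. Of the procollagen processing genes, 2 of 5 were higher in A3, beside 10.4% of all genes. In B3, 0 of 3 were higher, beside 8.1% of all genes. There 1 was lower, namely Pcolce, an enhancer of C-proteinase, with 198.9, 190.3 and 79.4 CPM. Adamts3, a procollagen N-proteinase under 10 CPM in ending B, stood at 5.14, 4.90 and 20.8 CPM in ending A and at 2.49, 3.14 and 9.07 CPM in ending B. P3h2, a prolyl 3-hydroxylase that acts on type IV collagen, stood at 13.2, 14.0 and 26.7 CPM in ending A and at 11.7, 14.3 and 36.9 CPM in ending B. Both were highest in set 3, with log2 ratios of 2.05 and 1.68 for Adamts3 and 0.98 and 1.5 for P3h2.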

How the data were processed

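Single-cell RNA-sequencing libraries (10x Chromium Single Cell 3′ v3, per the labels' protocols) of 6 samples were deposited by the authors as 1 matrix of raw UMI counts over 24568 genes and 13127 cells. The submitters' processing notes name Cell Ranger 2.1.1, Seurat and mm10. How cells were filtered before deposit, and whether counting used strand, is not given in the labels read here. The lipid barcodes that tie cells to embryos were not used here, so the whole matrix is 1 sample and no test was run.

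Cells with at least 1000 genes and at most 5% mitochondrial UMIs were kept and doublets called with Scrublet in scanpy 1.11.5 (expected rate 5%) were removed. It called 19 of 5940 cells of ending A (0.32%) and 46 of 7187 of ending B (0.64%), far under the expected rate, so that doublets may remain in both. Kept sets held 8160749 to 30932046 UMIs, so that 0 counts allow 0.10 to 0.37 CPM (3 counts). CPM were UMIs of a gene per 1000000 UMIs of the set. Each ending was clustered without collagen chains (2000 variable genes, 30 principal components, 15 neighbours, leidenalg 0.10.2, resolution 1). The rule that turns marker counts into classes was set after the data were seen. The members and lists were chosen with earlier results of these data known. Chains with 10 CPM in any set are named singly. Partner genes with 10 CPM are named where they had 1 of the 3 largest or 3 smallest ratios of an ending. Serpinh1, Itgb1, Pcolce, Loxl2 and Sparc were added after their values were seen.

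Intervals come from scipy 1.17.1. Poisson counts were simulated on the 9594 genes of ending A and the 8658 genes of ending B, with 200 changed genes in each. Direction was recovered for 100% at 2-fold and 4-fold. The 95% intervals held the true ratio for 95.3% at 2-fold and 91.4% at 4-fold in ending A. In ending B they held it for 96.6% and 93.75%. The simulation had no variation between sets beyond counting error, so it cannot show how such variation affects the ratios. Alternatives changed the cell filter, doublets, denominator, averaging, thresholds, thinning depth, class rule and the barcode sets used.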

Additional observations from a re-analysis of the deposited data

Results flagged for a closer look

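Col9a2, a chain of type IX collagen, had ratios of opposite direction in the endings. It stood at 13.2, 12.1 and 25.5 CPM in A1, A2 and A3, a log2 ratio of 1.01 (0.79 to 1.22), and at 9.96, 9.14 and 6.98 CPM in B1, B2 and B3, a log2 ratio of -0.45 (-0.90 to -0.02). The value of A3 lay above both other sets of its ending and that of B3 below both others. In ending B the chain was under 10 CPM in all sets. The difference between the endings was not tested, and the sets are not labelled samples.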

How the results depend on the processing

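No paired analysis was possible because no label ties a cell to a lane, so that lane numbers enter no comparison. All values are log2 ratios unless stated. Leaving out A1 or A2 gave -0.44 to -0.32 for fibrillar, 1.84 to 1.91 for type IV and 1.44 to 1.58 for type VI sums, and leaving out B1 or B2 gave -0.80 to -0.68 for fibrillar sums. Without a cell filter, fibrillar and type VI sums of ending A had ratios of -0.37 and 1.53. With 124 mitochondrial, ribosomal protein, haemoglobin and enterocyte genes left out of the denominator, fibrillar, type IV, FACIT and type VI sums had -0.44, 1.82, -0.16 and 1.45 in ending A and -0.81, 1.12, -0.89 and 1.05 in ending B. As means of CPM per cell, fibrillar, FACIT and type VI sums had -0.58, -0.20 and 1.39 in ending A, and fibrillar, type IV and type VI sums had -0.77, 1.15 and 1.07 in ending B. Type IV with Col15a1 and Col18a1 had 1.90 in ending A. Keeping called doublets moved no class sum beyond its interval.

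In PDGFRA-high cells alone, an alternative added after seeing the data, fibrillar sums turned to 0.42 in ending A and 0.28 in ending B and FACIT sums to 0.54 and 0.11. Type IV sums had 1.28 and 0.24 and type VI sums 0.83 and 0.33. Single chains whose ratio changed sign in ending A were Col3a1 (0.0053), Col11a1 (-0.071), Col16a1 (0.25) and Col6a5 (0.90). In ending B they were Col3a1 (0.19), Col4a3 (-0.078), Col13a1 (-0.079) and Col1a1 (0.037). Only the sign was compared, so small values such as those of Col3a1 in ending A and Col1a1 in ending B show no clear difference. Ratios of chain pairs shifted there by 1.08 and 0.40 for Col1a2 to Col1a1, 0.13 and -0.18 for Col6a2 to Col6a1, 1.20 and 0.066 for Col6a3 to Col6a1 and -0.97 and -0.43 for Col5a2 to Col5a1, and by 0.16 for Col4a2 to Col4a1 in ending B. The cause was not tested.

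The count of chains lower in A3, 3 of 30 in the report, was 5 of 30 at 1.5-fold (14.2% of all genes), 7 of 38 with a minimum of 1 CPM (7.26%) and 10 of 44 with none (17.3%). That in B3, 5 of 25 in the report, was 11 of 44 with none (12.3%). For PDGFRA-high against other mesenchyme in A1 and A2, fibrillar, type IV, FACIT and type VI ratios were -0.39, 2.15, 0.059 and 1.87 at resolution 0.5, and -0.10, 0.66, 0.0019 and 0.51 for 229 cells with 2 or more Pdgfra UMIs against 3421 with none. Without the cluster with the fewest markers, added after seeing the data, they were -0.42, 2.15, 0.026 and 1.88. The FACIT ratio thus changed sign in all 3, to small values of 0.0019 to 0.059. In B1 and B2, fibrillar, FACIT and type VI ratios were -1.35, -1.24 and 1.27 at resolution 0.5, and by Pdgfra UMIs the fibrillar, type IV, FACIT and type VI ratios were -0.76, 1.02, -0.91 and 0.93. Without thinning, the difference in share of cells turned to -0.76 percentage points for Col5a1 and -8.93 for Col11a1 in ending A and to -1.15 for Col5a1 in ending B. The cause was not tested. Depth limits Col4a3 and Col4a4 and the 14 chains under 10 CPM.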
